A study of Homo sapiens with 26 samples.

Results

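Genes that extracellular signal-regulated kinase (ERK) signaling switches on were followed through single cell-derived cell lines (SCDCLs) of pancreatic ductal adenocarcinoma. The 10 genes were DUSP4, DUSP5, DUSP6, SPRY2, SPRY4, SPRED1, ETV4, ETV5, PHLDA1 and FOSL1, each chosen by name as a transcriptional output of the RAS-ERK pathway, out of 41078 genes in the table. Messenger RNA was sequenced from 26 SCDCLs, 12 labelled BxPC3 and 14 labelled Panc1, each grown from a single cell and represented by 1 library. All cultures were kept in DMEM high glucose with fetal bovine serum. Every library carries the treatment label gemcitabine, a nucleoside analog used against pancreatic cancer, but the study's methods describe the drug only in separate viability assays, so whether the sequenced cultures received it is not clear and no comparison by treatment was made. The study asked how differences between such clones relate to their response to gemcitabine, and the labels do not give that response.

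The labels of cell line did not match SMAD4, the shared partner of the receptor-regulated SMADs in TGF-beta signaling, which the BxPC3 line is known to have lost and the Panc-1 line to express. SMAD4 was at 0 to 0.044 TPM (a transcript level corrected for transcript length and library size) in 12 libraries and at 28.1 to 52.2 TPM in the other 14. The 12 libraries without SMAD4 comprised 7 labelled Panc1 and 5 labelled BxPC3, and the 14 with SMAD4 comprised 7 of each label. Levels are therefore given for these SMAD4-negative and SMAD4-positive libraries. Since the grouping rests on a measured gene, the groups are described without a test. The total ranged from 27035724 to 34945608 estimated counts per library, and no pair of libraries was alike within counting noise. The summed level of 4 mesenchymal markers was 12.4 to 129 TPM in the SMAD4-negative and 3109 to 4565 TPM in the SMAD4-positive libraries, nearly all of it VIM in the latter. ZEB1 had the same direction, CDH2 overlapped, and FN1 had the opposite direction, at 8.39 to 66.2 TPM in the SMAD4-negative and 0.787 to 3.2 TPM in the SMAD4-positive libraries. Of 5 epithelial markers, CDH1, EPCAM and ESRP1 were higher in every SMAD4-negative library, with CDH1 at 90.8 to 198 TPM and 0.338 to 7.74 TPM, respectively. KRT19 and KRT8 overlapped, KRT8 having the higher median in the SMAD4-positive libraries (461 and 2053 TPM), and the summed level of the 5 markers overlapped too, at 1906 to 4405 TPM and 1293 to 5680.3 TPM. Of 7 markers of other cell types, PTPRC, DCN, ALB and INS had a mean below 1 TPM. CD68 was at 5.27 to 26.9 TPM in the SMAD4-negative and 42.5 to 141 TPM in the SMAD4-positive libraries. COL1A1 was at 8.92 to 26.5 TPM and 2.06 to 38.5 TPM, and PECAM1 at 0.897 to 6.07 TPM and 0.321 to 5.38 TPM, respectively, both overlapping. The group sizes, 12 and 14, equal the numbers of BxPC3 and Panc-1 SCDCLs in the study. The groups may thus be the parental lines themselves. SMAD4 loss then cannot be told apart from any other difference between those lines. Every difference between the SMAD4 groups went along with these marker differences, and their part in it was not tested. In these bulk cultures, fewer cells expressing a gene and less RNA per cell cannot be told apart.

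ERK is the last kinase of the RAS-RAF-MEK cascade and phosphorylates transcription factors that switch on its target genes. Many of these targets act back on the cascade: DUSP phosphatases remove phosphate from ERK, and SPRY and SPRED proteins hold back the steps between receptor, RAS and RAF. Other targets carry the signal onward as transcription factors, such as ETV4, ETV5 and FOSL1. In pancreatic cancer this cascade is a central driver of tumor growth.

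The regions just before the starts of DUSP6, PHLDA1, SPRY2 and SPRY4 are shown because these genes form the closest pairs in the SMAD4-positive libraries. The sequences are RefSeq promoter windows on GRCh38.p14, cut to the 250 bases before the RefSeq start and written along the gene's minus strand. They lie at chr12:89352502-89352751 for DUSP6, chr12:76031777-76032026 for PHLDA1, chr13:80341127-80341376 for SPRY2 (the first of its annotated starts) and chr5:142324248-142324497 for SPRY4, whose RefSeq start here lies inside the longer span of the gene in GENCODE. Matches to the ETS core CCGGAA, the AP-1 site TGANTCA, the CRE site TGACGTCA and the form TGAATGNA of the CIC site on either strand are in capitals. Other forms of the CIC site were not searched.
DUSP6: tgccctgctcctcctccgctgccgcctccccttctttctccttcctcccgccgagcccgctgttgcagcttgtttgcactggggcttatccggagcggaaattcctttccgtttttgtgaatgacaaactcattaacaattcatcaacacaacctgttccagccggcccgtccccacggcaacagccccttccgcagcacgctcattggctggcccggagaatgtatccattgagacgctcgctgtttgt
PHLDA1: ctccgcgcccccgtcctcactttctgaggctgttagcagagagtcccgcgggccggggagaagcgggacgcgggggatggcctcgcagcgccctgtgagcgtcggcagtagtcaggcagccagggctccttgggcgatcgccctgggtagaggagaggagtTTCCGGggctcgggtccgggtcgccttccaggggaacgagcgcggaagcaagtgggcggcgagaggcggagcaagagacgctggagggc
SPRY2: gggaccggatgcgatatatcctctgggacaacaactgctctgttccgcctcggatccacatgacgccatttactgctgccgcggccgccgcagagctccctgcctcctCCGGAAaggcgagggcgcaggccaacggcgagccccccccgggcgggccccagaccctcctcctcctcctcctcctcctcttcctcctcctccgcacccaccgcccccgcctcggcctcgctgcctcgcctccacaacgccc
SPRY4: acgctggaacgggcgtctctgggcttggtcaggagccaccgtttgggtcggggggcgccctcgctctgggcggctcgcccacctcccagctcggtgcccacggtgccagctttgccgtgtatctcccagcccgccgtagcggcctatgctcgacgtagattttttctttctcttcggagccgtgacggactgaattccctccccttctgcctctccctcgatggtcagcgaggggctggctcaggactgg
SPRY2 and PHLDA1 each held 1 ETS core match, and DUSP6 and SPRY4 held no match to the letters searched. The windows of the other annotated SPRY2 starts, not shown, held no match to these letters. Among all 35116 windows of this length, 14.5% held an ETS core, 6.57% an AP-1 site, 3.25% the CIC form searched and 1.65% a CRE site. SPRED1 was the other output gene with an entry, and its window held no match to these letters. The DUSP6 window holds tccattga, which on the other strand differs from the CIC form searched only by C in place of the first G. Whether CIC binds there was not tested. A CIC site of another form can also be present in the other windows. DUSP4, DUSP5, ETV4, ETV5 and FOSL1 had no entry.

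The output genes did not differ between the SMAD4 groups in 1 direction. DUSP4, DUSP6 and ETV4 were higher in every SMAD4-negative library than in any SMAD4-positive library. ETV5 was lower in every one of them. The ranges of the other 6 genes overlapped, with medians higher in the SMAD4-negative libraries for DUSP5, SPRY2 and SPRED1, and lower for SPRY4, PHLDA1 and FOSL1. Non-overlapping ranges were common across the transcriptome: among 14763 genes with a mean of at least 1 TPM, 30.3% did not overlap, 14.5% being higher in the SMAD4-negative and 15.8% higher in the SMAD4-positive libraries. The share of 4 of 10 output genes was near this background. The median difference of log2(TPM + 1) over the 10 genes was 0.84, against -0.02 over all genes, with members on both sides of 0.

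**Figure D1:**
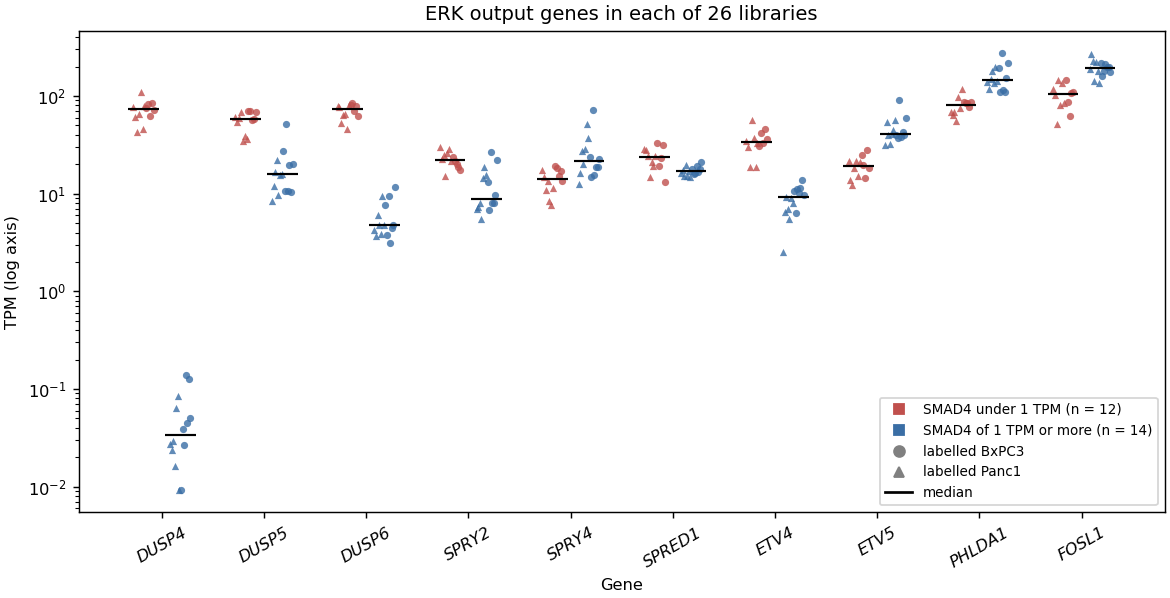
Level of the 10 ERK output genes in each of the 26 libraries, in TPM on a log axis, with SMAD4-negative libraries (SMAD4 under 1 TPM) in red, SMAD4-positive libraries in blue, the label as the symbol shape and the group median as a black bar. The points of DUSP4, DUSP6, ETV4 and ETV5 are apart between the colors, and those of the other 6 genes overlap.

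Among the phosphatases, DUSP4, a nuclear enzyme that inactivates mitogen-activated protein kinases, differed most. It was at 42.7, 73.1 and 111.0 TPM (lowest, median and highest) in the SMAD4-negative libraries. In the SMAD4-positive libraries it was at 0.00915, 0.0341 and 0.140 TPM, which rested on 0.971 to 15.3 estimated counts per library. DUSP4 was thus at or near the limit of detection in all 14 SMAD4-positive libraries, and the lowest SMAD4-negative library was 304-fold above the highest of them. Of all genes compared, 0.677% had a larger difference of medians. DUSP6 (chr12:89347235-89352501 on GRCh38), a cytoplasmic phosphatase with strong preference for ERK, was at 45.6, 73.7 and 84.1 TPM in the SMAD4-negative libraries. Its level in the SMAD4-positive libraries was 3.15, 4.78 and 11.8 TPM. The medians of DUSP6 differed 15.4-fold, the nearest libraries of the groups differed 3.87-fold, and 4.03% of genes had a larger difference.

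DUSP5 (chr10:110497907-110511533), a nuclear phosphatase of ERK, was at 34.8, 58.8 and 70.9 TPM in the SMAD4-negative and at 8.51, 15.8 and 51.9 TPM in the SMAD4-positive libraries. Its medians differed 3.73-fold, but library 18 of the SMAD4-positive group, at 51.9 TPM, lay within the SMAD4-negative range. The next highest SMAD4-positive library had 27.5 TPM of DUSP5. Without library 18 the ranges of DUSP5 no longer overlapped, and 5 of the 10 genes stood apart.

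Among the inhibitors, SPRY2 (chr13:80335976-80341126), a Sprouty protein that restrains receptor tyrosine kinase signaling, was at 15.2, 22.2 and 29.9 TPM in the SMAD4-negative libraries. In the SMAD4-positive libraries its level was 5.53, 8.90 and 26.4 TPM. Its medians differed 2.49-fold, and 4 SMAD4-positive libraries reached the SMAD4-negative range. SPRY4 (chr5:142310427-142326455), another Sprouty protein, had the opposite order, with 7.58, 14.2 and 19 TPM in the SMAD4-negative and 12.5, 21.4 and 71.3 TPM in the SMAD4-positive libraries. The medians of SPRY4 differed 1.51-fold, and 8 SMAD4-negative libraries lay within the SMAD4-positive range. SPRED1 (chr15:38252836-38357249), which brings neurofibromin to the membrane to switch off RAS, was at 13.3, 23.6 and 32.8 TPM against 14.9, 16.9 and 21.2 TPM. All 14 SMAD4-positive libraries lay within the SMAD4-negative range of SPRED1.

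Among the transcription factors, the related ETS factors ETV4 and ETV5 stood apart in opposite directions. ETV4 (chr17:43527844-43579620) was at 18.6, 33.9 and 57.3 TPM in the SMAD4-negative libraries and at 2.54, 9.18 and 13.7 TPM in the SMAD4-positive ones. ETV5 (chr3:186046314-186110318) was at 12.4, 19 and 28.2 TPM in the SMAD4-negative and at 31.7, 40.5 and 91.5 TPM in the SMAD4-positive libraries. The gap between the nearest libraries was narrow, at 1.36-fold for ETV4 and 1.12-fold for ETV5, while the medians differed 3.70-fold and 2.1-fold. In median level per length, ETV4 was therefore above ETV5 in the SMAD4-negative libraries and below it in the SMAD4-positive libraries. FOSL1 (chr11:65892049-65900573), the AP-1 subunit FRA1, had the highest median of the 10 genes in both groups. It was at 52.2, 105 and 147 TPM in the SMAD4-negative and at 136, 195 and 269 TPM in the SMAD4-positive libraries, with 3 SMAD4-negative libraries within the SMAD4-positive range.

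PHLDA1 (chr12:76025447-76031776), a pleckstrin homology-like protein induced by growth factors, was at 55.8, 80.9 and 118 TPM in the SMAD4-negative and at 109, 146 and 275 TPM in the SMAD4-positive libraries. Only library 7, at 118 TPM, reached the SMAD4-positive range of PHLDA1, and without it the ranges did not overlap. Ordered by median, FOSL1, PHLDA1, DUSP6, DUSP4 and DUSP5 came first in the SMAD4-negative libraries. FOSL1, PHLDA1, ETV5 and SPRY4 came first in the SMAD4-positive libraries. In the SMAD4-negative libraries the ranges of FOSL1, PHLDA1, DUSP6, DUSP4 and DUSP5 all overlapped one another. In the SMAD4-positive libraries those of FOSL1 and PHLDA1 overlapped, and so did those of ETV5 and SPRY4.

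The other genes of the pathway were mixed as well. Of 3 further genes of a published MAPK activity signature, all overlapped between the groups: CCND1 (cyclin D1) had medians of 178 and 178 TPM, EPHA2 187 and 219.9 TPM, and EPHA4 5.00 and 0.326 TPM in the SMAD4-negative and SMAD4-positive libraries. Of 10 relatives of the output genes with a mean of at least 1 TPM, DUSP7 and PHLDA3 were higher and DUSP1 and SPRED2 lower in every SMAD4-negative library, and 6 overlapped. Over all genes with such a mean 30.3% did not overlap, so these counts were near the background. DUSP7, like DUSP6 a cytoplasmic ERK phosphatase, had a median of 49.6 TPM in the SMAD4-negative and 5.50 TPM in the SMAD4-positive libraries. DUSP1, a nuclear phosphatase that also acts on p38 and JNK, was at 7.42 to 15.2 TPM and 29.2 to 77.5 TPM, respectively. The DUSP phosphatases thus did not all share a direction. Medians of DUSP2, DUSP4, DUSP5, DUSP6 and DUSP7 were higher in the SMAD4-negative libraries, and those of DUSP1 and DUSP9 lower. PHLDA3 had medians of 43.3 and 7.28 TPM, and the overlapping DUSP9 1.40 and 5.92 TPM.

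Among 8 immediate early genes with a mean of at least 1 TPM, which respond to ERK within minutes of stimulation without new protein synthesis, EGR3, JUNB and MYC were higher in every SMAD4-negative library and 5 overlapped. Of all genes with such a mean, 14.5% were higher in every SMAD4-negative library, and 30.3% did not overlap in either direction. JUNB had medians of 187 and 35.3 TPM in the SMAD4-negative and SMAD4-positive libraries. EGR1 had medians of 24.4 and 2.92 TPM and FOS 4.92 and 0.729 TPM, both with overlapping ranges. FOSB was at 4.07 to 24.8 TPM and 0.354 to 7.69 TPM. The median log2 difference over these 8 genes was 1.68, against -0.02 over all genes, and JUN was the only one with a lower median in the SMAD4-negative libraries. Of 6 kinases and regulators, CIC, a repressor of ETV4 and ETV5 that ERK inactivates, was higher in every SMAD4-negative library, with medians of 52.0 and 27.0 TPM. KSR1, a scaffold of the cascade, was lower in every one, with medians of 5.24 and 19.3 TPM. The share of these regulators that did not overlap was again near the 30.3% of all genes. MAPK3 (ERK1) had medians of 19.6 and 31.0 TPM and RASA1 36.5 and 27.1 TPM, and both overlapped. Transcript levels of the kinases say nothing of their phosphorylation, which was not measured here.

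**Figure D2:**
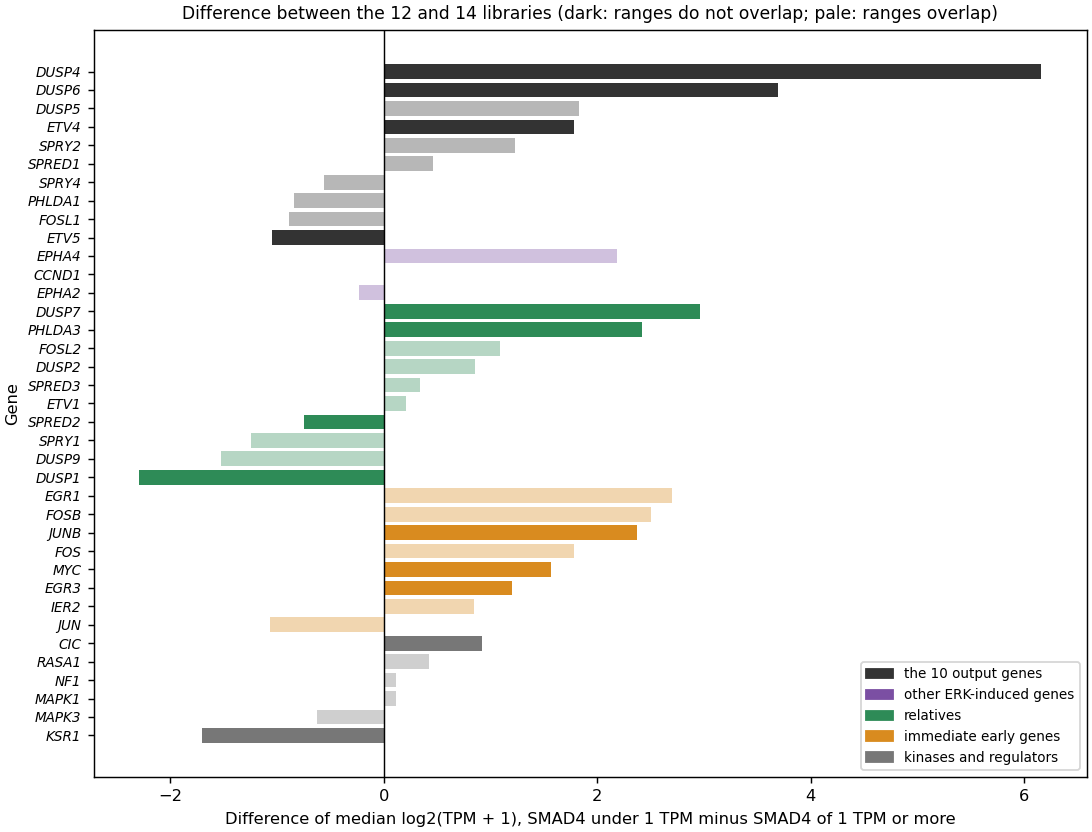
Difference of the group medians of log2(TPM + 1), SMAD4-negative minus SMAD4-positive libraries (12 and 14 libraries), for the output genes and 4 lists of pathway genes with a mean of at least 1 TPM. Dark bars mark genes whose ranges do not overlap and pale bars genes whose ranges overlap, and bars on both sides of 0 appear in every list.

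The comparison the labels give, Panc1 against BxPC3, called none of the output genes. With edgeR's quasi-likelihood test, 0 of 16008 genes (0.0%) passed an adjusted p under 0.05, and 367 had an unadjusted p under 0.05. None of the 10 output genes was called and none had an unadjusted p under 0.05, in edgeR or in DESeq2, which called 2 of 29034 genes. Each label holds libraries of both SMAD4 groups, so the ranges were wide: DUSP4 was at 0.00922 to 84.3 TPM in the libraries labelled BxPC3 and at 0.00915 to 111.0 TPM in those labelled Panc1. The log2 fold change of Panc1 over BxPC3 was 0.15 with a standard error of 1.42 for DUSP4, 0.05 with 0.68 for DUSP6 and -0.01 with 0.14 for SPRED1. The standard error was largest for DUSP4 and smallest for SPRED1, so the test was far less precise for DUSP4.

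With the SMAD4 group as a covariate, the standard errors were smaller and still no gene of the whole table was called by edgeR. DUSP5 then had a log2 fold change of -0.49 (SE 0.22, edgeR p = 0.0333, adjusted p = 0.632), and ETV4 one of -0.41 (SE 0.18, edgeR p = 0.0307, adjusted p = 0.629). Both were lower in the libraries labelled Panc1, and neither passed the threshold. Within the SMAD4-positive libraries ETV4 had medians of 6.90 TPM (labelled Panc1) and 10.6 TPM (labelled BxPC3, n = 7 each, edgeR adjusted p = 0.982). Within the SMAD4-negative libraries SPRY4 was at 7.58 to 17.6 TPM in the 7 libraries labelled Panc1 and at 13.6 to 19 TPM in the 5 labelled BxPC3 (edgeR adjusted p = 0.426). An interaction of label and SMAD4 group was called for none of the 10 genes, with a smallest edgeR adjusted p of 0.749.

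Clones of the same SMAD4 group differed from one another in the output genes, with larger SDs in the SMAD4-positive group for some of them. The SD of log2(TPM + 1) over the 14 SMAD4-positive libraries was 0.69 for SPRY4, 0.67 for DUSP5 and 0.65 for SPRY2, against a median of 0.286 over 13532 genes with a median of at least 1 TPM. Only 7.06%, 7.52% and 7.99% of these genes had a larger SD, respectively. In the 12 SMAD4-negative libraries the same genes had SDs of 0.40, 0.37 and 0.27, near the median of 0.297 over all genes. SPRED1 was the reverse, with an SD of 0.14 in the SMAD4-positive libraries, where 95.6% of genes had a larger one, and 0.39 in the SMAD4-negative libraries. ETV4 and DUSP6 had SDs of 0.52 and 0.51 in the SMAD4-positive libraries, and FOSL1 had the largest SD of the SMAD4-negative libraries at 0.47. Whether the spread of a gene differed between the groups was not tested.

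The spread exceeded the error of the estimates. The authors' resamples of the reads, which measure counting and read assignment error within a library, gave SDs between 0.014 and 0.089 for all genes and groups except DUSP4 in the SMAD4-positive libraries. The spread between libraries was 3.80 to 27.0 times as large. With 1 library per SCDCL, differences between clones and between cultures of one clone cannot be told apart. For DUSP4 in the SMAD4-positive libraries the resample SD was 0.577 on the log2 count scale, and differences among those libraries were not detectable at this depth.

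**Figure D3:**
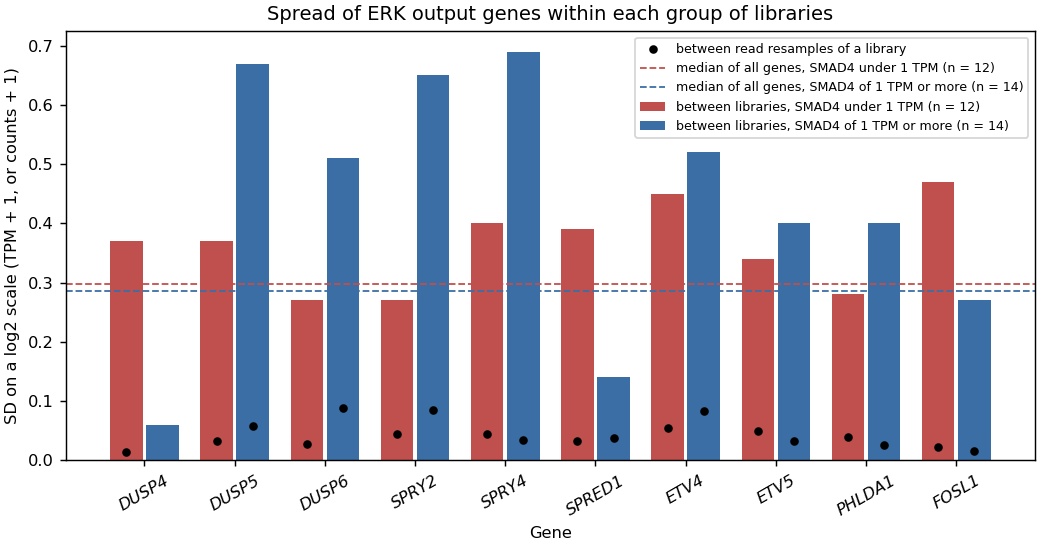
Spread of each output gene within the SMAD4-negative (red, n = 12) and SMAD4-positive (blue, n = 14) libraries, as the SD of log2(TPM + 1) between libraries (bars), with the SD of log2(counts + 1) between read resamples of a library (black points, not drawn for DUSP4 in the SMAD4-positive group) and the median SD over all genes (dashed lines). The blue bars of DUSP5, SPRY2 and SPRY4 rise to between 0.65 and 0.69, and the points lie at or below 0.089.

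Some clones were high or low in several output genes. In the SMAD4-positive group library 18, labelled BxPC3, was highest in DUSP5, SPRY2, SPRY4, ETV5 and PHLDA1 and among the 3 highest in 7 of 10 genes. It had 71.3 TPM of SPRY4 and 91.5 TPM of ETV5, against group medians of 21.4 and 40.5 TPM. Library 23, also labelled BxPC3, was highest in DUSP6 and SPRED1, and library 13, labelled Panc1, was among the 3 highest in DUSP6, SPRY2, SPRY4 and PHLDA1. At the other end, library 8, labelled Panc1, was lowest in DUSP5, SPRY4, ETV4 and ETV5. In the SMAD4-negative group library 16 was highest in SPRY4, SPRED1 and FOSL1 and among the 3 highest in 7 genes, and library 3 was lowest in DUSP4, ETV4, ETV5 and FOSL1.

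Correlation between the output genes was computed within each group, over log2(TPM + 1). In the SMAD4-positive libraries 9 genes had a median of at least 1 TPM, and their 36 pairs had a median Pearson's r of 0.38 (jackknife SE over libraries 0.15). In the SMAD4-negative libraries the 45 pairs of all 10 genes had a median r of 0.18 (jackknife SE 0.16). The same genes paired with all other genes had a median r of 0.02 in both groups. An r over 0.5 was reached by 15 of 36 pairs (41.7%) in the SMAD4-positive and by 8 of 45 pairs (17.8%) in the SMAD4-negative libraries, against 6.55% and 9.66% of the pairs with other genes. The difference of the medians between the groups was not tested.

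No single pair passed the adjustment over the whole table. A two-sided permutation test of each output gene against every expressed gene called 0 of 121779 relations (0.0%) in the SMAD4-positive and 0 of 140940 relations (0.0%) in the SMAD4-negative libraries at an adjusted p under 0.05. With 100000 permutations the smallest p was 1e-05. Through relations at that p alone, a call needed 25 in the SMAD4-positive and 29 in the SMAD4-negative libraries, where 16 and 13 were found. A larger number of relations at a slightly higher p could also have given calls, and was not reached. The count of 0 thus also reflects the number of permutations and cannot show that no relation exists. At an unadjusted permutation p under 0.05, 14 of 36 pairs of output genes had a positive r in the SMAD4-positive libraries (38.9%), against 5.17% of all relations. None had a negative r, against 4.21% of all relations. In the SMAD4-negative libraries 8 of 45 pairs had a positive r at that level (17.8%, against 6.1% of all relations) and 1 pair a negative r (2.22%, against 3.97%). By Spearman's rho the counts were 10 and 0 in the SMAD4-positive and 7 and 0 in the SMAD4-negative libraries. Without library 18, the positive count in the SMAD4-positive libraries was 8 of 36 pairs (22.2%). Without library 3 or library 6 that in the SMAD4-negative libraries was 3 (6.67%) or 4 (8.89%) of 45. A further run left out the 2 libraries farthest from the median of the first gene. It gave 6 of 36 positive pairs (16.7%) in the SMAD4-positive and 3 of 45 (6.67%) in the SMAD4-negative libraries. In the latter 1 pair had a negative r. The SMAD4-negative share was then near the 6.1% of all relations with all libraries.

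**Figure D4:**
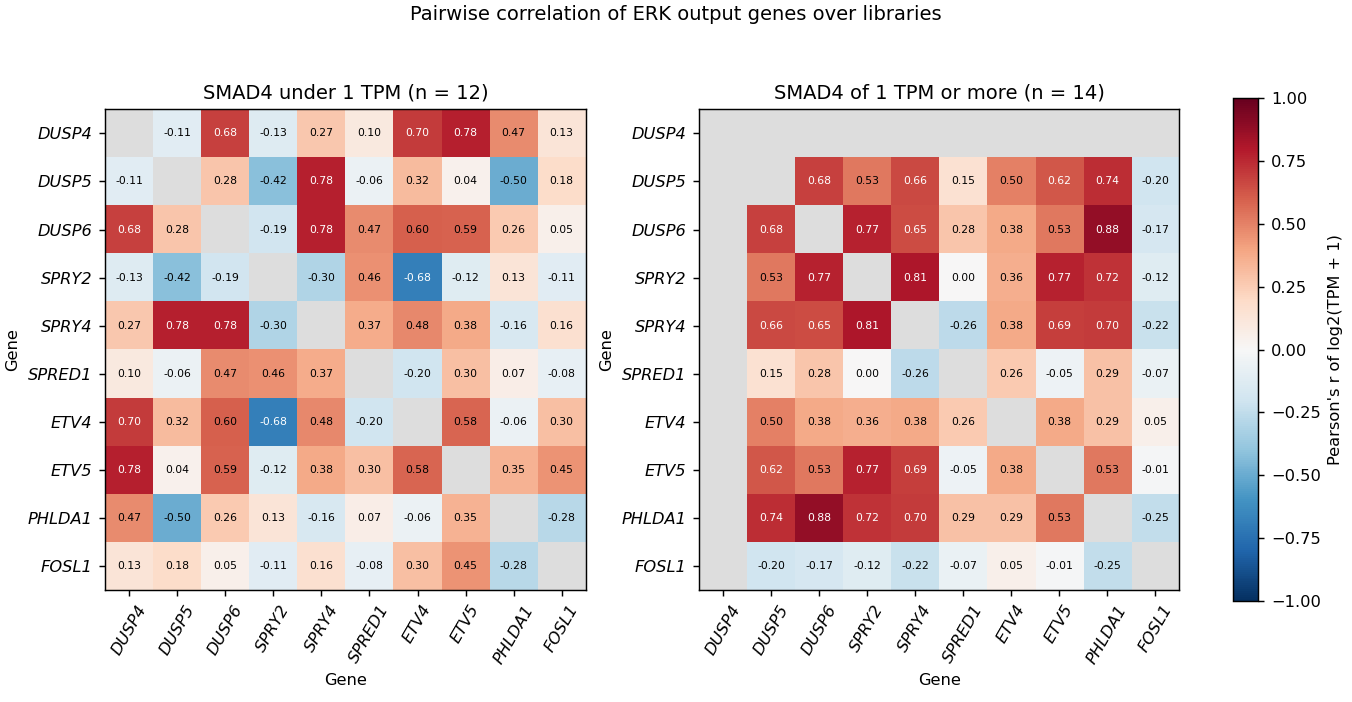
Pearson's r of log2(TPM + 1) for each pair of output genes over the 12 SMAD4-negative (left) and 14 SMAD4-positive libraries (right), with DUSP4 left grey on the right because its median was under 1 TPM. On the right a block of DUSP5, DUSP6, SPRY2, SPRY4, ETV5 and PHLDA1 has r from 0.53 to 0.88 with all libraries. Without library 18, 9 of its 15 pairs keep an r over 0.5. FOSL1, SPRED1 and ETV4 stand outside it, ETV4 with r from 0.29 to 0.50 with the block.

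In the SMAD4-positive libraries the 15 pairs with an r over 0.5 were those among DUSP5, DUSP6, SPRY2, SPRY4, ETV5 and PHLDA1. These 6 genes were grouped after their values were seen, and without library 18 an r over 0.5 was left in 9 of the 15 pairs. The 6 pairs that lost it were DUSP5 with SPRY2, SPRY4 and ETV5, and ETV5 with DUSP6, SPRY4 and PHLDA1. DUSP6 and PHLDA1 were the closest pair, with r = 0.88 and Spearman's rho = 0.90 (permutation p = 9e-05, adjusted p = 0.141 for r), and r = 0.83 without the 2 libraries farthest from the median of DUSP6. SPRY2 and SPRY4 had r = 0.81 and rho = 0.77 (permutation p = 0.00049, adjusted p = 0.197), and r = 0.72 without library 18. Both pairs thus kept most of their r without the extreme clones. DUSP5 with ETV5 did not, with an r of 0.62 that was 0.20 without library 18, nor did ETV5 with PHLDA1, whose r of 0.53 was then 0.16. FOSL1 stood outside, with r from -0.25 to 0.05 with the other 8 genes, and so did SPRED1, with r from -0.26 to 0.29. ETV4 was outside too, with r from 0.29 to 0.50 with the 6 genes.

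In the SMAD4-negative libraries the closest pairs were others. DUSP4 and ETV5 had r = 0.78 and rho = 0.87 (permutation p = 0.00268, adjusted p = 0.272), DUSP6 and SPRY4 r = 0.78 and rho = 0.77 (permutation p = 0.00297, adjusted p = 0.277), and DUSP5 and SPRY4 r = 0.78 and rho = 0.68 (permutation p = 0.00456, adjusted p = 0.302). Without the 2 libraries farthest from the median of the first gene these r values were 0.64, 0.59 and 0.74. DUSP4 with DUSP6, DUSP4 with ETV4 and DUSP6 with ETV4 had r of 0.68, 0.70 and 0.60, which were 0.06, 0.11 and -0.33 without libraries 3 and 6, so these relations rested on those 2 clones. SPRY2 ran against ETV4, with r = -0.68 and rho = -0.55 (permutation p = 0.0142, adjusted p = 0.371). SPRY2 and SPRY4, close in the SMAD4-positive libraries, had r = -0.30 here, and DUSP6 and PHLDA1 had r = 0.26. The difference of these correlations between the groups was not tested.

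**Figure D5:**
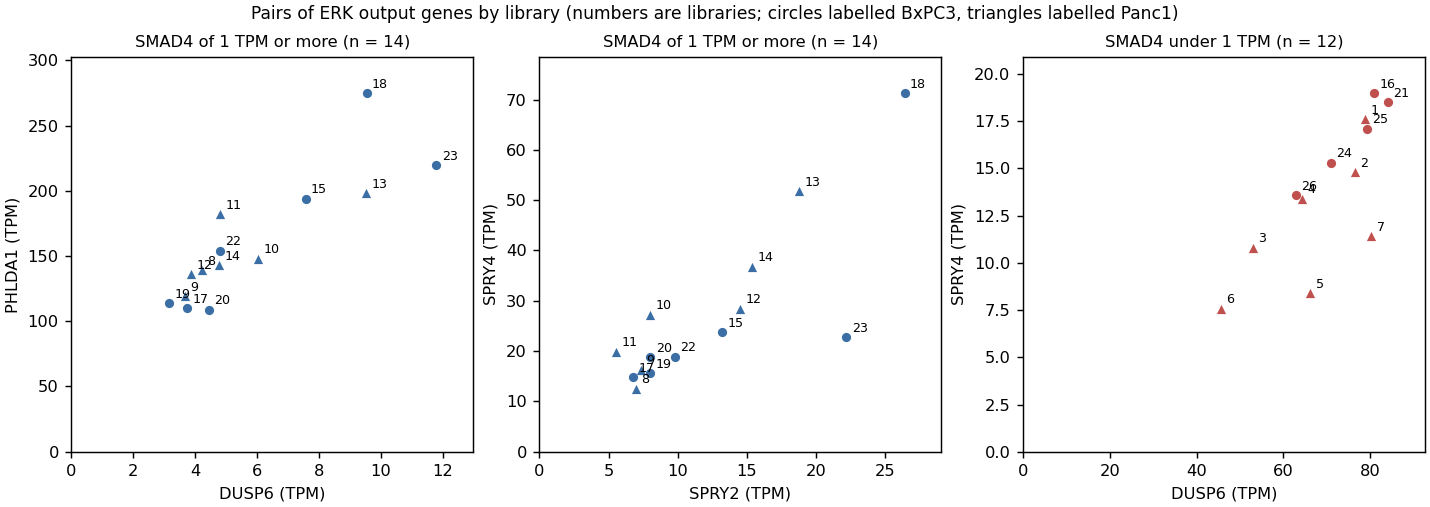
Levels in TPM of DUSP6 and PHLDA1 (left) and of SPRY2 and SPRY4 (middle) in the 14 SMAD4-positive libraries, and of DUSP6 and SPRY4 in the 12 SMAD4-negative libraries (right), each point being 1 library with its number. Libraries 13, 18 and 23 lie at the upper end of DUSP6, PHLDA1 and SPRY2 in the SMAD4-positive group, and library 6 lies at the lower end of both genes on the right.

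The gene most like each output gene, by Pearson's r over the libraries of a group, was sought among genes with a symbol outside the output list. Other output genes were left out of this ranking, so it cannot show whether one of them was the most alike. For DUSP6 in the SMAD4-positive libraries, PHLDA1 reached the same rounded r (0.88) as the partner named below. In the SMAD4-positive libraries PHLDA1 was most like ETV1, an ETS factor related to ETV4 and ETV5, with r = 0.92 over 14 libraries (permutation adjusted p = 0.0761). DUSP5 was most like TNFRSF12A (r = 0.90), DUSP6 like NSMF (r = 0.88), SPRY2 like TAFA2 (r = 0.89), SPRY4 like LINC03009 (r = 0.93), SPRED1 like GPD2 (r = 0.90), ETV4 like TRAF1 (r = 0.82), ETV5 like RGS20 (r = 0.90) and FOSL1 like MZT1 (r = 0.83). In the SMAD4-negative libraries SPRED1 was most like TLNRD1 and SPRY4 like CPD, each with r = 0.96 over 12 libraries. There DUSP4 was most like KRT6A (r = 0.85), DUSP5 like SMPDL3B (r = 0.92), DUSP6 like IGSF3 (r = 0.94), SPRY2 like BMP2K (r = 0.89), ETV4 like ATOSB (r = 0.93), ETV5 like EFNB1 (r = 0.86), PHLDA1 like BROX (r = 0.85) and FOSL1 like CD83 (r = 0.91). No output gene had the same nearest gene in both groups. Relations were computed with 13531 or 14094 genes, and these partners were picked as the highest outside the output list. None of the partners passed the adjusted permutation test, whose smallest possible p several of them had.

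Library depth and proliferation markers were set beside the output genes within each group, and no relation passed the adjusted test. Pearson's r of an output gene with the library total lay between -0.44 and 0.28, and the smallest permutation adjusted p over 19 relations was 0.896. Of 45 relations with MKI67, TOP2A, CCNB1, BUB1 and AURKA in the SMAD4-positive libraries, 2 had an unadjusted permutation p under 0.05, SPRY4 with AURKA (r = -0.56, adjusted p = 0.503) and SPRY4 with TOP2A (r = -0.55, adjusted p = 0.512). None of 50 such relations in the SMAD4-negative libraries did. The summed level of the 5 proliferation markers was 631 to 913 TPM in the SMAD4-negative and 571 to 1202 TPM in the SMAD4-positive libraries. Of these markers BUB1 was lower in every SMAD4-negative library, at 39.4 to 52.6 TPM against 65.5 to 128 TPM, and the other 4 overlapped.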

How the data were processed

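The deposited table holds, for each gene and library, TPM, estimated counts and 30 read resamples, which the authors made with kallisto 0.46.1 on GRCh38 from poly-A, strand-specific libraries. The deposited TPM values are corrected for transcript length and library size. The authors scaled the deposited estimated counts (expected counts) by length to the library total. Of the resamples, 5 per library were used, and 676 per-sample columns were not used. Ensembl identifiers were matched to GENCODE 44 symbols (30340 of 41078 genes).

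The genes and lists were chosen with earlier results of these data known. Of the pathway lists, up to 4 genes each with the largest difference of medians were named, besides those counted as not overlapping. Each library came from the culture of its own clone, and no clone was sequenced again. The p-values thus measure the spread between libraries, in which clone and culture cannot be told apart. In the test between labels without the covariate, that spread also holds the difference between the SMAD4 groups. Levels were taken as log2(TPM + 1). Estimated counts were rounded and tested between labels with edgeR 4.0.16 (TMM, filterByExpr, Benjamini-Hochberg) in R 4.3.3, with DESeq2 1.42.0 as an alternative. Correlations used 100000 permutations of libraries, adjusted over all relations of a group, and the smallest p these can give is 1e-05. Other steps used Python 3.11.15, numpy 2.4.6, pandas 2.3.3 and scipy 1.17.1. The tests were tested on simulated data. Alternatives were other pseudocounts, filters and scalings, and leaving out each library. The study's proteins and gemcitabine responses were not analysed here.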

Additional observations from a re-analysis of the deposited data

How the results depend on the processing

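Leaving out 1 library at a time left 4 to 5 output genes with ranges that did not overlap between the SMAD4 groups. No output gene was called between the labels and no pair within either group in any of these runs, where the number of permutations also limits what can be called. The median r ranged from 0.12 to 0.28 in the SMAD4-negative and from 0.30 to 0.46 in the SMAD4-positive libraries. Another pseudocount, CPM (counts scaled to the library) or Spearman's rho gave no call either. The difference of medians of DUSP4 depended on the scale, being 6.16 with a pseudocount of 1, 9.09 with 0.1, 3.95 with 5 and 7.93 on CPM, since its SMAD4-positive level rests on few counts. That of DUSP6 was 3.69 with a pseudocount of 1 and 3.01 with 5. All directions of the 10 genes were the same under every scaling run. No paired analysis was possible because each library came from its own clone and the labels give no pairing. Each SCDCL has 1 library, which limits what can be said of a clone. The added alternatives, the interaction and single libraries left out of the pairs, were chosen after seeing the data.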
